A study of Homo sapiens with 4 samples.

Results

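The YAP/TEAD genes studied here were CTGF, CYR61, THBS1, ANKRD1, AMOTL2, AMOTL1, LATS2, AXL, TEAD1 and YAP1, chosen by gene symbol, and all 10 were found among the 23143 gene symbols of the table. Polyadenylated RNA was sequenced from A549, a human lung adenocarcinoma line, in 4 libraries, 2 of cells given doxycycline in which GATA4 was overexpressed (DOX) and 2 of cells without doxycycline with GATA4 at its normal level (noDOX). Per the study's design text the cells without doxycycline received vehicle, and the title places the study in lung cancers that lack GATA4 and in inhibition of the type I TGF-β receptor. GATA4, the zinc finger transcription factor that was induced, was at 74.98 and 48.0 FPKM in DOX libraries 1 and 2 and at 12.2 and 14.5 FPKM in noDOX libraries 1 and 2. Whether the inducible gene added to the noDOX values was not tested. FPKM counts fragments relative to transcript length and to the mapped fragments of the library, so levels can be set side by side between genes, and the read depth behind it is unknown. No library of doxycycline-treated cells without the inducible gene was analysed here, so effects of doxycycline and of GATA4 cannot be told apart.

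The Hippo pathway is a kinase cascade in which STK3 and STK4 activate LATS1 and LATS2. The LATS kinases phosphorylate the coactivators YAP1 and TAZ (gene WWTR1) and keep them out of the nucleus. When the cascade is off, for example in spread cells under actin tension, YAP1 and TAZ bind the TEAD proteins, which recognise the sequence GGAATG, and switch on genes such as CTGF, CYR61 and ANKRD1. LATS2 and AMOTL2 are themselves targets and act back on YAP1. In the list above YAP1 and TEAD1 are parts of the machinery rather than its outputs, and several of the outputs, CTGF and THBS1 among them, are also known to respond to TGF-β through SMAD proteins.

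The promoters of 5 genes are shown because their transcripts lay below or above the noDOX libraries in both DOX libraries. They are RefSeq windows on GRCh38.p14, from 250 bases before to 50 bases after the transcription start, written 5′ to 3′ on the strand of the gene. Capitals mark each match of GGAATG or of its reverse complement CATTCC. CTGF is on chr6:131951323-131951622 (minus strand), ANKRD1 on chr10:90921038-90921337 (minus), THBS1 on chr15:39580829-39581128 (plus), AMOTL2 on chr3:134374398-134374697 (minus, the first of its 2 listed starts by coordinate) and AMOTL1 on chr11:94768106-94768405 (plus).
CTGF: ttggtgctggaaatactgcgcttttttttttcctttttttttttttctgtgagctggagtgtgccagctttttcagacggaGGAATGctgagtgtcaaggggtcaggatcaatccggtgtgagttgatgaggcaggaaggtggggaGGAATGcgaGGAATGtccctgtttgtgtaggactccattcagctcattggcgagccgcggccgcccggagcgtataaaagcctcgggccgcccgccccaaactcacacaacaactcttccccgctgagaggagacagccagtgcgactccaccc
ANKRD1: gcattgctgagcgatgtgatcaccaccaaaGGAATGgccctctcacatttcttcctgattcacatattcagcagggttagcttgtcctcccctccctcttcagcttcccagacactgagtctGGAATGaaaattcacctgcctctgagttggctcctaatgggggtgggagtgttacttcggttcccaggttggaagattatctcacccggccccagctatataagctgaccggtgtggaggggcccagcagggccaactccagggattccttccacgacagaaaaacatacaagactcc
THBS1: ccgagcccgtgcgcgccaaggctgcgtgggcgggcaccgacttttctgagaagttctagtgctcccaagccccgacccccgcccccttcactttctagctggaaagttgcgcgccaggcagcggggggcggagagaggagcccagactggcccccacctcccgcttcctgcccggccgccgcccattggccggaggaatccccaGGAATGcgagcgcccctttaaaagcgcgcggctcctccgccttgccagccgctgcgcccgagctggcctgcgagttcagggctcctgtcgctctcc
AMOTL2: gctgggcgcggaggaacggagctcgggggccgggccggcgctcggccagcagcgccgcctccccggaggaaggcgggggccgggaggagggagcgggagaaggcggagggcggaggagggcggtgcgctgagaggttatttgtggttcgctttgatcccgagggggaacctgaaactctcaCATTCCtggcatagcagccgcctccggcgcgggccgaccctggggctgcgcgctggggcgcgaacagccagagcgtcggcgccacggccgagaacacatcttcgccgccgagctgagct
AMOTL1: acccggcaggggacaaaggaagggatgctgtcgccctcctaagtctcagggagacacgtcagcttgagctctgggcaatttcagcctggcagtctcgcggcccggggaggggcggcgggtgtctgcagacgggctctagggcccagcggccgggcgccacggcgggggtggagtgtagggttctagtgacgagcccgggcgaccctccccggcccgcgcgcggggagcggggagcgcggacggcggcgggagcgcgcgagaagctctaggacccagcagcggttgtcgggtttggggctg

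The CTGF window held 3 matches, which began 169, 104 and 95 bases before the start, and that of ANKRD1 held 2, which began 220 and 128 bases before it. THBS1 had 1 match, 46 bases before the start. AMOTL2 had 1 on the other strand, beginning 69 bases before its first listed start and none at its second, and AMOTL1 had 0. Among the other genes, YAP1 had 1 match 162 bases before the start, AXL had 1 on the other strand at the second of its 2 listed starts, and LATS2 had 1 in the first bases of its transcript. No promoter window was available for CYR61 or TEAD1, so these genes were not searched for the motif. In all, 7 of 10 windows of 8 genes held the motif, against 14.0% of 35116 promoter windows of 300 bases. At least 2 matches were present in 1.37% of all windows and at least 3 in 0.128%. A match is a string of letters and was not tested as a binding site.

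**Figure D1:**
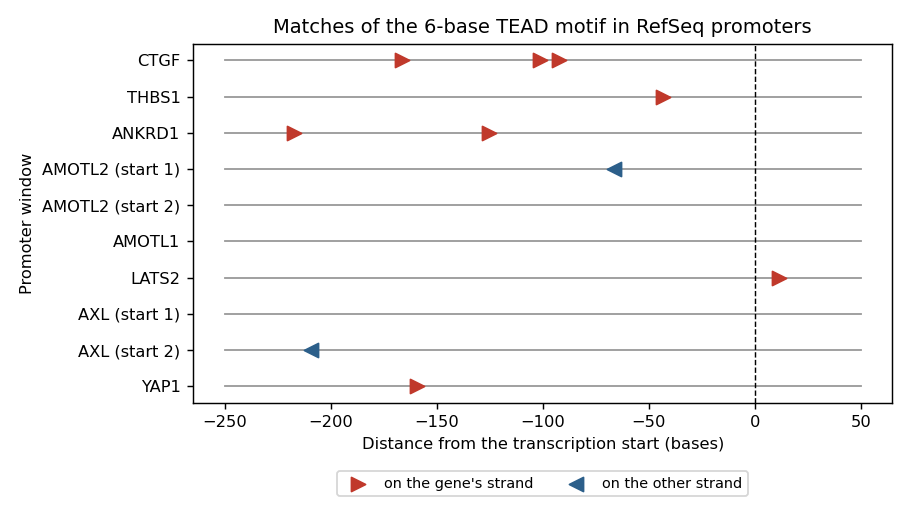
Positions of GGAATG (triangles pointing right, on the strand of the gene) and CATTCC (pointing left, on the other strand) in the 10 RefSeq promoter windows, by distance in bases from the transcription start (dashed line). CTGF has 3 matches and ANKRD1 has 2, all before the start, and AMOTL1 has 0.

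In the comparison of DOX with noDOX libraries, which asks what differs when GATA4 is raised, CTGF, CYR61, THBS1, ANKRD1 and AMOTL2, 5 of the 10, had both DOX libraries below both noDOX libraries, as had 17.3% of the 12504 genes tested. AMOTL1 was the 1 gene with both DOX libraries above both noDOX libraries, as had 14.7% of tested genes. For AMOTL1 this rests on a near tie, with DOX library 2 at 6.52 FPKM and noDOX library 2 at 6.51 FPKM. The other 4, LATS2, AXL, TEAD1 and YAP1, overlapped. In bulk RNA such as this, fewer cells with a transcript and less of it per cell cannot be told apart. The test was limma on log2(FPKM + 1) with p adjusted over all tested genes, and by it 0 of the 10 passed at 0.05, against 0.064% of tested genes called lower and 0.024% called higher. At an unadjusted p under 0.05 (limma) there were 4, CTGF, CYR61, ANKRD1 and THBS1, all lower, where 3.52% of tested genes were lower and 2.82% higher at that level. GATA4 itself did not pass (log2 difference 2.09; limma, adjusted p = 0.289), so a gene that did not pass may still differ. The median log2 difference of the 10 was -0.31, against -0.04 over all tested genes. It was -0.53 without noDOX library 1, -0.17 without DOX library 2 and -0.18 without noDOX library 2.

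**Figure D2:**
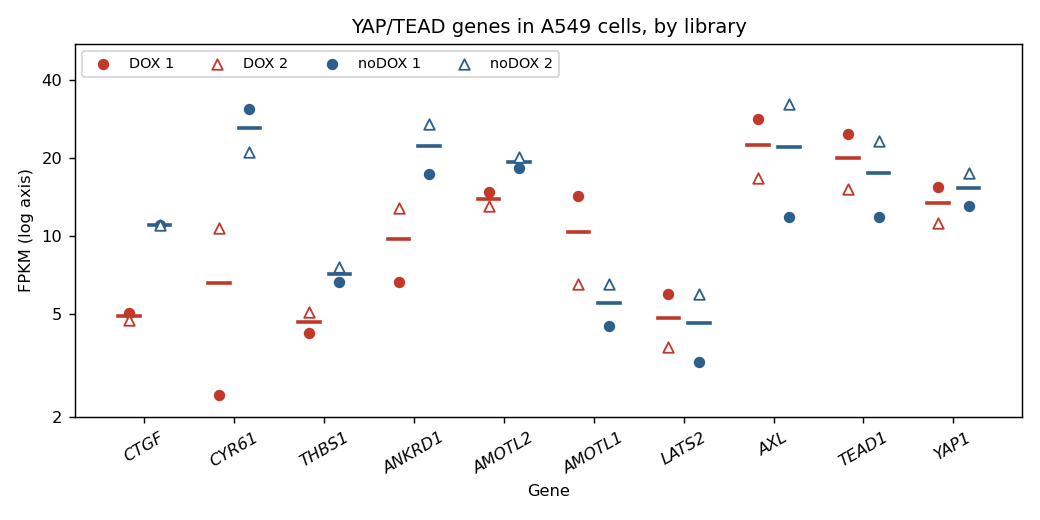
FPKM on a log axis for each gene in DOX libraries 1 and 2 (red) and noDOX libraries 1 and 2 (blue), with bars at the group means. CTGF lies at 5.04 and 4.75 FPKM in the DOX libraries and at 11.01 FPKM in noDOX library 1 and 11.02 FPKM in noDOX library 2, and the groups of LATS2, AXL, TEAD1 and YAP1 overlap.

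CTGF, CYR61 and THBS1 encode secreted matricellular proteins, and CTGF and CYR61 belong to the CCN family. CTGF was at 5.04 and 4.75 FPKM in DOX libraries 1 and 2, and at 11.01 and 11.02 FPKM in noDOX libraries 1 and 2. The groups were far apart for CTGF relative to the spread within each, with means of 4.90 ± 0.207 FPKM in DOX and 11.01 ± 0.0103 FPKM in noDOX libraries (SD, n = 2 each). On the log2(FPKM + 1) scale, which understates the change of low genes, the CTGF difference was -1.03 (SE 0.17, 95% interval -1.47 to -0.59; limma, adjusted p = 0.374). CTGF shares 195 exon bases with an antisense gene in GENCODE release 29, and whether the quantification used strand is not stated in the labels.

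CYR61 was at 2.43 and 10.7 FPKM in DOX libraries 1 and 2, and at 31.0 and 21.1 FPKM in noDOX libraries 1 and 2. Both DOX values lay below both noDOX values, but the DOX libraries differed 4.40-fold from each other. Its difference was the most negative of the 10, at -2.07 on the log2(FPKM + 1) scale (SE 0.64, 95% interval -3.76 to -0.37; limma, adjusted p = 0.671), and 1.06% of tested genes had a lower one. It was -1.18 without DOX library 1 and -2.95 without DOX library 2. THBS1, which encodes thrombospondin 1, an activator of latent TGF-β, was at 4.22 and 5.10 FPKM in DOX libraries 1 and 2 and at 6.65 and 7.57 FPKM in noDOX libraries 1 and 2. The replicates of THBS1 lay close together and the groups apart, with a log2 difference of -0.52 (SE 0.19, 95% interval -1.02 to -0.02; limma, adjusted p = 0.766). THBS1 shares 174 exon bases with an antisense gene.

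ANKRD1 encodes an ankyrin repeat protein of the nucleus and the muscle sarcomere and is a commonly used readout of YAP1 activity. It was at 6.66 and 12.8 FPKM in DOX libraries 1 and 2, and at 17.3 and 27.1 FPKM in noDOX libraries 1 and 2. The DOX values were the lower pair, with means of 9.73 ± 4.34 FPKM in DOX and 22.2 ± 6.95 FPKM in noDOX libraries (SD, n = 2 each). The log2 difference was -1.14 (SE 0.39, 95% interval -2.18 to -0.10; limma, adjusted p = 0.746), and it was -0.72 without DOX library 1. In CYR61, ANKRD1 and THBS1 the lowest library was DOX 1. In CTGF the lowest was DOX 2, and the DOX libraries differed by 1.06-fold.

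The angiomotin-like proteins AMOTL1 and AMOTL2 bind YAP1 at junctions and on actin. AMOTL2 was at 14.7 and 13.1 FPKM in DOX libraries 1 and 2, and at 18.3 and 20.2 FPKM in noDOX libraries 1 and 2, a log2 difference of -0.44 (SE 0.19, 95% interval -0.96 to 0.07; limma, adjusted p = 0.871). The replicates of AMOTL2 differed 1.13-fold in DOX and 1.10-fold in noDOX libraries, and the groups were apart. AMOTL2 shares 187 exon bases with a pseudogene on the same strand. AMOTL1 was at 14.2 and 6.52 FPKM in DOX libraries 1 and 2, and at 4.48 and 6.51 FPKM in noDOX libraries 1 and 2. DOX library 1 stood above the others, and DOX library 2 was level with noDOX library 2. The AMOTL1 difference was 0.74 (SE 0.40, 95% interval -0.34 to 1.81; limma, adjusted p = 0.963), and it was 0.23 without DOX library 1 and 1.24 without DOX library 2. AMOTL1 shares 496 exon bases with an antisense gene. LATS2, the kinase that phosphorylates YAP1, was at 5.97 and 3.71 FPKM in DOX libraries 1 and 2 and at 3.25 and 5.99 FPKM in noDOX libraries 1 and 2. The LATS2 groups overlapped, with a log2 difference of 0.07 and a 95% interval of -0.85 to 0.99.

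AXL is a receptor tyrosine kinase of the TAM family. It was at 28.3 and 16.6 FPKM in DOX libraries 1 and 2, and at 11.8 and 32.3 FPKM in noDOX libraries 1 and 2. The noDOX libraries differed 2.72-fold and held both the lowest and the highest AXL value, so the log2 difference of 0.14 had a 95% interval of -1.32 to 1.60. TEAD1, the DNA-binding partner, was at 24.7 and 15.2 FPKM in DOX libraries 1 and 2, and at 11.9 and 23.2 FPKM in noDOX libraries 1 and 2. YAP1 was at 15.4 and 11.3 FPKM in DOX libraries 1 and 2, and at 13.0 and 17.5 FPKM in noDOX libraries 1 and 2. Both overlapped between groups, with log2 differences of 0.21 (95% interval -0.90 to 1.32) for TEAD1 and -0.18 (95% interval -0.88 to 0.51) for YAP1. For LATS2, AXL, TEAD1 and YAP1 the adjusted p was 0.999 (limma), and the intervals do not exclude differences of either sign. YAP1 shares 628 exon bases and AXL 67 with an antisense gene.

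**Figure D3:**
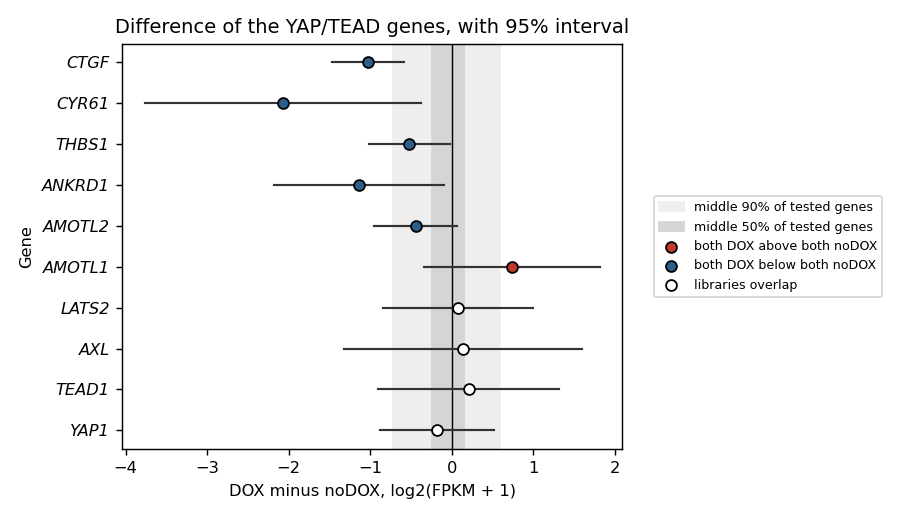
Difference of DOX minus noDOX in log2(FPKM + 1) for each gene, with 95% intervals from limma, over bands that hold the middle 50% and 90% of tested genes. CYR61, ANKRD1 and CTGF lie below the wider band at -2.07, -1.14 and -1.03, and AMOTL1 lies above it at 0.74.

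The order of the libraries differed between genes. In LATS2, AXL, TEAD1 and YAP1 DOX library 1 and noDOX library 2 were both higher than DOX library 2 and noDOX library 1, an order shared by 26.9% of tested genes. The same pairs of libraries stood apart in their total, in the opposite direction, since the FPKM sum outside microRNA and other small RNA genes was 568294 in DOX library 1 and 575373 in noDOX library 2, against 755157 in DOX library 2 and 900263 in noDOX library 1. The part of this in the values of the 4 genes was not tested. The direction of LATS2, AXL and TEAD1 turned without DOX library 1 (log2 differences of -0.21, -0.23 and -0.13) and without noDOX library 1 (-0.29, -0.55 and -0.25), and that of YAP1 turned without DOX library 2 (0.031) and without noDOX library 2 (0.021). CTGF, CYR61, THBS1, ANKRD1, AMOTL2 and AMOTL1 kept their direction in each of these 4 fits. That outcome was fixed, since groups that do not overlap keep their sign when any library is left out.

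**Figure D4:**
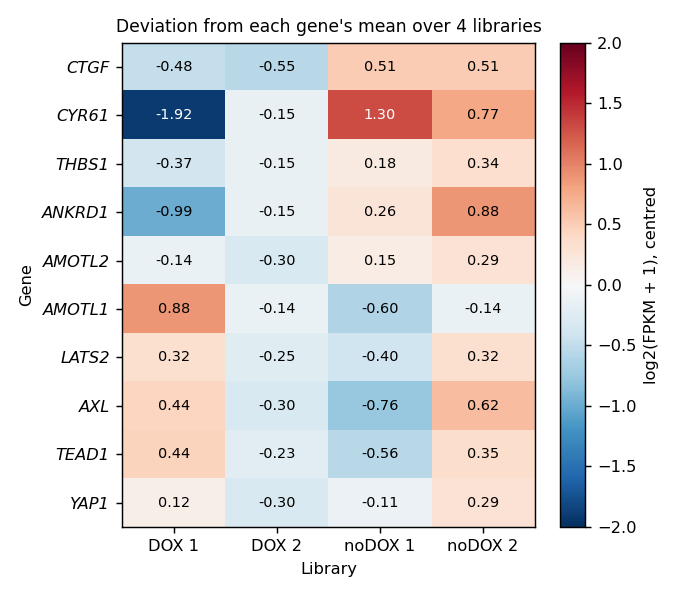
Deviation of log2(FPKM + 1) from the mean of each gene over the 4 libraries, with DOX libraries 1 and 2 left of noDOX libraries 1 and 2. CTGF is at -0.48 and -0.55 in the DOX libraries and at 0.51 in each noDOX library, whereas AXL is at 0.44 in DOX library 1 and at 0.62 in noDOX library 2.

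By the mean over the 4 libraries, DOX and noDOX pooled, AXL came first at 22.3 FPKM, followed by TEAD1 at 18.7, AMOTL2 at 16.6, CYR61 at 16.3, ANKRD1 at 16.0, YAP1 at 14.3, CTGF at 7.95, AMOTL1 at 7.93, THBS1 at 5.89 and LATS2 at 4.73 FPKM. Each neighbouring pair in that order overlapped in its library values except YAP1 and CTGF, whose nearest values were 11.25 FPKM for YAP1 and 11.02 FPKM for CTGF. The order differed by group. In the DOX libraries CYR61 averaged 6.57 ± 5.85, ANKRD1 9.73 ± 4.34 and AXL 22.5 ± 8.27 FPKM, whereas in the noDOX libraries CYR61 averaged 26.0 ± 6.99, ANKRD1 22.19 ± 6.95 and AXL 22.06 ± 14.4 FPKM (SD, n = 2 each).

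Among the remaining partners on DNA, WWTR1, TEAD2, TEAD3 and VGLL3 had overlapping groups. WWTR1, which encodes TAZ, was at 25.1 and 17.03 FPKM in DOX libraries 1 and 2 and at 16.9 and 22.7 FPKM in noDOX libraries 1 and 2. TEAD4 was the 1 gene of the TEAD family with groups apart, at 10.4 and 13.9 FPKM in DOX libraries 1 and 2 and at 18.8 and 21.2 FPKM in noDOX libraries 1 and 2. The TEAD4 values gave a difference of -0.69 in log2(FPKM + 1) (SE 0.23; limma, adjusted p = 0.711). TEAD2 averaged 18.4 ± 1.55 FPKM in DOX and 19.9 ± 2.42 FPKM in noDOX libraries, and TEAD3 averaged 4.48 ± 0.498 and 5.50 ± 1.02 FPKM in DOX and noDOX libraries (SD, n = 2 each). The TEAD2 difference was -0.11 and turned to 0.020 with libraries scaled to the same sum outside small RNA genes. VGLL4, which competes with YAP1 for TEAD proteins, was at 22.7 and 16.6 FPKM in DOX libraries 1 and 2 and at 13.2 and 14.2 FPKM in noDOX libraries 1 and 2, while VGLL1 and VGLL2 were listed at 0. Of the 8 partners 6 were tested and 0 passed (limma, smallest adjusted p = 0.711). TEAD4, lower, was the 1 at an unadjusted p under 0.05 (limma), beside 3.52% of all tested genes lower and 2.82% higher. Of the 6, 1 had both DOX libraries below and 1 both above the noDOX libraries, beside 17.3% and 14.7% of all tested genes. The median log2 difference of the 6 was -0.17, and ran from -0.27 without noDOX library 1 to -0.055 without noDOX library 2. VGLL4 shares 1596 exon bases with ATG7 on the other strand, and WWTR1 627 with an antisense gene.

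Of 21 Hippo kinases and scaffolds 18 were tested, and 6 had both DOX libraries above and 0 both below the noDOX libraries, beside 14.7% of all tested genes above and 17.3% below. None of the 18 passed (0 by limma, smallest adjusted p = 0.578). At an unadjusted p under 0.05 (limma) there were 2, TAOK3 and WWC3, both higher, beside 2.82% of all tested genes higher and 3.52% lower. The median log2 difference of the 18 was 0.23. It was 0.043 without DOX library 1 and 0.073 without noDOX library 1, and 0.40 without DOX library 2 and 0.42 without noDOX library 2. TAOK3, a kinase upstream of STK3 and STK4, was at 16.8 and 12.7 FPKM in DOX libraries 1 and 2 and at 7.53 and 8.14 FPKM in noDOX libraries 1 and 2. WWC3, a relative of the scaffold WWC1, was at 29.3 and 14.7 FPKM in DOX libraries 1 and 2 and at 8.34 and 10.4 FPKM in noDOX libraries 1 and 2. Both had the DOX values as the higher pair, with log2 differences of 0.82 (SE 0.21) for TAOK3 and 1.08 (SE 0.37) for WWC3. The LATS-activating subunit MOB1B, listed under its older symbol MOBKL1A, and the kinase MAP4K4 had differences of 0.69 and 0.64. Without DOX library 1 the differences were 0.60 for WWC3, 0.37 for MOB1B and 0.30 for MAP4K4. LATS1 overlapped, at 2.52 ± 0.627 FPKM in DOX and 1.84 ± 0.342 FPKM in noDOX libraries (SD, n = 2 each).

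Further known target genes of YAP1 and TEAD proteins had values on both sides. Of 16 genes 15 were tested, 5 with both DOX libraries below and 6 with both above the noDOX libraries, beside 17.3% and 14.7% of all tested genes. The median log2 difference was 0.28, the opposite sign from that of the 10 genes. It was -0.010 without DOX library 1 and 0.58 without DOX library 2. None passed (0 by limma, smallest adjusted p = 0.420; 3 lower and 3 higher at an unadjusted p under 0.05, where all tested genes had 3.52% lower and 2.82% higher). IGFBP3, an insulin-like growth factor binding protein, was at 5.77 and 16.5 FPKM in DOX libraries 1 and 2 and at 70.6 and 135 FPKM in noDOX libraries 1 and 2. The groups of IGFBP3 were far apart, with a log2 difference of -3.18 (SE 0.59; limma, adjusted p = 0.420). TGFB2, a ligand of the TGF-β receptors, was at 2.03 and 3.47 FPKM in DOX libraries 1 and 2 and at 5.11 and 7.02 FPKM in noDOX libraries 1 and 2. TGFB2 shares 1371 exon bases with a noncoding RNA gene on the same strand.

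In the other direction, NT5E, the ectonucleotidase CD73, was at 33.99 and 16.6 FPKM in DOX libraries 1 and 2 and at 10.05 and 7.13 FPKM in noDOX libraries 1 and 2. MYOF, the membrane repair protein myoferlin, was at 141 and 92.7 FPKM in DOX libraries 1 and 2 and at 48.2 and 66.2 FPKM in noDOX libraries 1 and 2. NT5E and MYOF thus had log2 differences of 1.39 (SE 0.40; limma, adjusted p = 0.640) and 1.01 (SE 0.35; limma, adjusted p = 0.747), and that of NT5E was 0.89 without DOX library 1. Promoter windows were matched for 11 of the 16 genes, and 4 of these genes held the TEAD motif in any of their windows. The 14.0% over all promoters is counted by window, so a gene with several listed starts has more chances of a match.

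**Figure D5:**
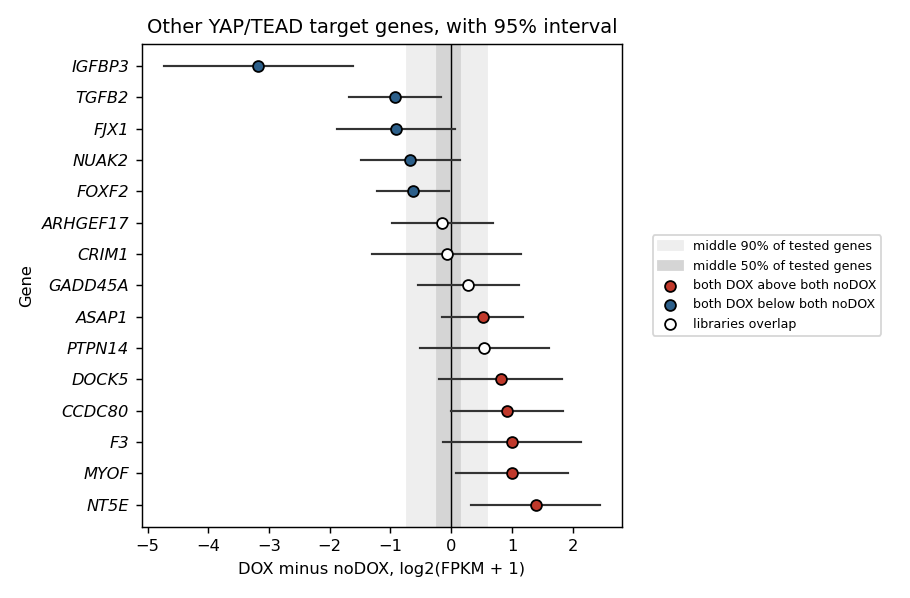
Difference of DOX minus noDOX in log2(FPKM + 1) for 15 further YAP/TEAD target genes, with 95% intervals from limma and bands that hold the middle 50% and 90% of tested genes. IGFBP3 lies at -3.18 and TGFB2 at -0.93, while MYOF and NT5E lie at 1.01 and 1.39.

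Of 12 family relatives of the 10 genes 7 passed the filter on low values and were tested, and 0 passed the test (limma, smallest adjusted p = 0.725). TYRO3, higher, was the 1 at an unadjusted p under 0.05 (limma), beside 2.82% of all tested genes higher and 3.52% lower. Of the 7, 2 had both DOX libraries below and 1 both above the noDOX libraries, beside 17.3% and 14.7% of all tested genes. Of the CCN relatives of CTGF and CYR61, WISP2 alone passed the filter on low values, at 0.499 and 5.07 FPKM in DOX libraries 1 and 2 and 7.25 and 4.20 FPKM in noDOX libraries 1 and 2, so its groups overlapped. TYRO3, a TAM receptor like AXL, was at 15.4 and 7.04 FPKM in DOX libraries 1 and 2 and at 3.28 and 4.75 FPKM in noDOX libraries 1 and 2, a log2 difference of 1.21 (SE 0.41; limma, adjusted p = 0.725) that was 0.70 without DOX library 1. ANKRD2 and ANKRD23, relatives of ANKRD1, had log2 differences of -0.49 and -0.18.

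Genes of the actin cytoskeleton under SRF and its MRTF cofactors, a programme that shares CYR61 and CTGF with YAP1, had a median log2 difference of 0.09 over 20 tested of 23. The sign of that median turned without noDOX library 1 (-0.081) and without DOX library 1 (-0.0022). Of these genes, 2 had both DOX libraries below and 3 both above the noDOX libraries, beside 17.3% and 14.7% of all tested genes. None passed (0 by limma, smallest adjusted p = 0.619). At an unadjusted p under 0.05 (limma) there were 2, FHL2 lower and TPM4 higher, beside 3.52% of all tested genes lower and 2.82% higher. FHL2, a LIM-domain cofactor, was at 4.87 and 8.11 FPKM in DOX libraries 1 and 2 and at 14.5 and 12.8 FPKM in noDOX libraries 1 and 2. TPM4, a tropomyosin, was at 709 and 680 FPKM in DOX libraries 1 and 2 and at 391.8 and 294.9 FPKM in noDOX libraries 1 and 2. FHL2 and TPM4 had log2 differences of -0.995 (SE 0.27) and 1.03 (SE 0.36). MYH9, non-muscle myosin IIA, had a difference of 0.81, and MKL2, an MRTF gene, one of 0.35. Without DOX library 1 these were 0.52 for MYH9 and 0.00046 for MKL2.

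Epithelial markers were present in every library, at uneven levels. The keratins KRT8 and KRT18 were at 1728 FPKM or more, while KRT19 was at 11.99 and 86.98 FPKM in DOX libraries 1 and 2 and at 53.5 and 7.49 FPKM in noDOX libraries 1 and 2. The cadherin CDH1 lay between 8.73 and 25.8 FPKM, with overlapping groups. The adhesion protein gene EPCAM had 3.83 and 3.08 FPKM in DOX libraries 1 and 2 and 8.27 and 13.7 FPKM in noDOX libraries 1 and 2, so its groups did not overlap (log2 difference -1.40, SE 0.29; limma, adjusted p = 0.494), and its part in the other differences was not tested. The genes CDKN2A and CDKN2B, which A549 cells have lost, were listed at 0 in all 4. Endothelial markers summed to 0.1005 to 0.119 FPKM. Fibroblast markers summed to 1.79 and 2.89 FPKM in DOX libraries 1 and 2 and to 3.76 and 8.50 FPKM in noDOX libraries 1 and 2. Of the 4 fibroblast markers COL1A1 alone was tested, and COL1A2, DCN and PDGFRB were at 0.0208 FPKM or less in every library. Among blood markers LYZ was at 1.11 to 3.71 FPKM and CD3E was listed at 0. COL1A1 made up nearly all the fibroblast sums, at 1.76 and 2.88 FPKM in the DOX and 3.76 and 8.46 FPKM in the noDOX libraries. Like CTGF, CYR61 and THBS1, COL1A1 was lower in both DOX libraries than in both noDOX libraries. Its part in those values was not tested.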

How the data were processed

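The authors deposited 1 table of FPKM with 23143 gene symbols and a column for each of the 4 libraries. Per the submitters' processing notes, TopHat2 2.0.10, Bowtie, Cufflinks 2.2.1 and Cuffdiff were used on hg19. Neither the gene annotation, nor use of strand, nor how libraries were scaled to each other is stated in the sources used here. A filter on a mean of at least 1 FPKM left 12504 genes, tested with limma 3.58.1 in R 4.3.3 as 2 group means, with a mean-variance trend and Benjamini-Hochberg adjustment over all of them. There were 2 residual degrees of freedom, and an exact permutation test of 2 against 2 libraries cannot go below p = 0.33. The labels do not say whether replicates are separate cultures, so p-values measure a spread that may be technical. Small RNA genes (prefixes MIR, SNOR, RNU and RNY, and also RN7S and SCARNA) held 34.8 to 41.9% of each FPKM sum.

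The genes and lists were chosen with earlier results of these data known. Named were the 10 genes, GATA4, WWTR1, LATS1, TEAD2 to TEAD4, the 4 genes of each list with the smallest p and the 5 closest to CTGF. VGLL1, VGLL2 and the individual cell type markers were named after their values were seen. MOB1A, MOB1B and AJUBA were matched by older symbols. Promoters came from RefSeq (where CTGF is CCN2) and exon overlaps from GENCODE release 29, both on a later build than hg19. The test was run on simulated data in which every gene had the same spread, so it was not checked under the unequal spread of real genes.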

Additional observations from a re-analysis of the deposited data

How the results depend on the processing

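Under 15 alternatives, of which 1 was added after the data were seen, 0 of the 10 YAP/TEAD genes passed (LATS2 was not tested with a mean of at least 5 FPKM), and 33 of 39 genes named kept their direction throughout. With libraries left out 1 at a time the log2 differences ran from -0.29 to 0.43 for LATS2, -0.55 to 0.82 for AXL, -0.25 to 0.66 for TEAD1, -0.39 to 0.031 for YAP1, -0.19 to 0.34 for WWTR1 and -0.23 to 0.0093 for TEAD2, so these 6 changed sign. TEAD2 was at 0.020 with libraries scaled to the same sum without small RNA genes. The cause was not tested. Many of the 39 were named for a small p or for likeness to CTGF. Groups that do not overlap cannot change sign when a library is left out, so the 33 of 39 partly follow from that choice. The median of the 10 genes ran from -0.53 to -0.17 with libraries left out 1 at a time. Over all tested genes 3 were called higher and 8 lower by limma. These counts were 0 and 1 with no filter and 1 and 0 with small RNA genes left out, and the number higher was 5 with a pseudocount of 0.1 and 6 with robust moderation. Without 1 library they ran from 7 to 34 higher and from 23 to 54 lower, where the lone library of a group is taken to vary like the others. With a replicate block, 30 were higher and 35 lower. The replicate numbers are not said to pair libraries, and deviations of libraries with the same number had a correlation of -0.35 across genes, and of -0.76 without small RNA genes. A crossed pairing, added after the data were seen, gave 2 higher and 5 lower. IGFBP3 passed with the replicate block (limma, adjusted p = 0.00601; 0.0732 to 0.812 in the other alternatives). Read depth could not be weighed, since the table holds no counts.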

Other observations

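The transcripts whose course over the 4 libraries was closest to that of CTGF were found among 12102 tested genes outside the 10 and the small RNA classes. The measure was the root mean square difference between log2(FPKM + 1) values, each centred on its own mean. The 5 closest were LOC441177 (0.05), ICAM1 (0.07), GAL3ST1 (0.08), NFKBIA (0.08) and CRYAB (0.09). NFKBIA, which encodes the inhibitor of NF-κB that NF-κB itself induces, was at 29.4 and 32.4 FPKM in DOX libraries 1 and 2 and at 65.6 and 67.7 FPKM in noDOX libraries 1 and 2. GAL3ST1, a sulfotransferase of glycolipids, was at 3.44 and 3.72 FPKM in DOX libraries 1 and 2 and at 8.56 and 9.18 FPKM in noDOX libraries 1 and 2. The adhesion molecule ICAM1 was at 0.355 and 0.239 FPKM in DOX libraries 1 and 2 and at 1.82 and 1.92 FPKM in noDOX libraries 1 and 2. ICAM1 shares 815 exon bases with 1 antisense gene and 61 with another. CRYAB, a small heat shock protein that shares exon bases with HSPB2 on the other strand, was at 0.394 and 0.374 FPKM in DOX libraries 1 and 2 and at 1.52 and 1.98 FPKM in noDOX libraries 1 and 2. All 5 had lower values in both DOX libraries, and 0 passed (limma, adjusted p = 0.345 to 0.566). They were chosen for their likeness to CTGF, so these values are a description. For LOC441177, ICAM1 and CRYAB, at 2.2 FPKM or less in every library, the likeness depends on the 1 added before the logarithm. With a pseudocount of 0.1 their log2 differences were -2.05, -2.33 and -1.92. CTGF was then at -1.15, GAL3ST1 at -1.29 and NFKBIA at -1.11.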
